A study of Gallus gallus with 6 samples.

Results

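The genes described here encode the proteins of the mitochondrial ribosome, and were taken as every gene whose symbol is MRPL or MRPS followed by a number and at most a letter. This gave 67 of the 23873 genes listed, 41 of the large subunit and 26 of the small subunit by symbol. All 67 are annotated as protein coding, and all 67 averaged at least 1 TPM (a transcript level corrected for transcript length and library total), the minimum for testing. They were measured in primordial germ cells (PGCs) of the chicken, which in the embryo give rise to the germ line and were here grown in culture. The somatic differentiated PGCs (3 libraries) were adherent cells, enriched by drawing off the cells in suspension and letting the rest proliferate for some further weeks. The undifferentiated PGCs (3 libraries) were the cells in suspension. The labels give a single origin and medium for both groups: cells from the blood of early chick embryos, kept in a serum-poor medium with FGF2, the kinase inhibitor H1152 and the myosin inhibitor blebbistatin. No genotype, sex or strain is given for either group. The study asked which genetic pathways become active when PGCs convert to somatic cells.

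Mitochondria carry their own small genome, and mitochondrial ribosomes translate its messages into core subunits of the respiratory chain. The ribosomal RNAs come from that genome, but every protein of the mitochondrial ribosome is encoded in the nucleus, made in the cytosol and imported. The large subunit joins amino acids and holds the tunnel through which the new protein leaves, while the small subunit binds the message and reads its codons. Some of the proteins have bacterial counterparts and others are found only in mitochondria. A few symbols mislead: in mammalian structures MRPS30 and MRPS18A sit in the large subunit, and MRPS36 is a component of the 2-oxoglutarate dehydrogenase complex.

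TPM keeps no read number, so the depth behind each value is unknown and no counting interval can be given. Of the 23873 genes, 12996 were tested. No label says that replicate libraries came from separate cultures or animals, so p-values measure only the spread between these libraries. The 8 germ cell markers together had 1535 to 2205 TPM in somatic differentiated libraries, against 5954 to 6533 TPM in undifferentiated libraries, and all 8 were called lower. The 6 mesenchymal markers had 21158 to 29014 TPM in somatic differentiated libraries, against 1959 to 2551 TPM in undifferentiated libraries, and all 6 were called higher; FN1 lost its call without any single library but somatic differentiated library 2 (adjusted p = 0.0606 to 0.115). The somatic differentiated libraries still held RNA of the germ cell genes. Marker sums of other cell types, somatic differentiated against undifferentiated, were lower than those, for erythroid cells (3.25 to 19.8 against 0.213 to 1.20 TPM), leukocytes (8.03 to 17.0 against 6.32 to 8.31 TPM), endothelium (24.8 to 98.3 against 10.3 to 18.7 TPM) and gonadal somatic cells (22.9 to 55.0 against 13.9 to 25.6 TPM). CDH5, an adhesion protein of endothelial junctions, was the largest part of the endothelial sum in each somatic differentiated library, but PECAM1 exceeded it in each undifferentiated library. CDH5 rose to 12.5, 91.0 and 31.9 TPM in somatic differentiated libraries, against 3.99, 2.85 and 3.92 TPM in undifferentiated libraries (log2 change 2.92, adjusted p = 0.0112). Endothelial KDR was called lower (adjusted p = 0.0454, and 0.0723 to 0.137 without any single library but undifferentiated library 2), while PECAM1 did not pass. Gonadal FOXL2 was called higher at low levels (adjusted p = 0.012). It had 3.25, 1.41 and 1.69 TPM in somatic differentiated libraries, against 0.472, 0 and 0.0696 TPM in undifferentiated libraries. Of the other gonadal markers, SOX9 did not pass (0.109), and AMH, CYP19A1, NR5A1 and WT1 were below the minimum for testing. Erythroid HBE did not pass, at 18.0, 1.44 and 2.97 TPM in somatic differentiated libraries, against 0.63, 0.213 and 1.04 TPM in undifferentiated libraries. HBBA, below the minimum for testing, had 1.71, 1.73 and 1.77 TPM, against 0 in each undifferentiated library. HBZ reached 0.455 TPM in undifferentiated library 1 and HBAD 0.0839 TPM in somatic differentiated library 2. HBA1 and HBE1 were at 0 in every library, and the part of any other cell type in the results was not tested.

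Of the 67 mitochondrial ribosomal protein genes, 23 fell in the somatic differentiated PGCs, 1 rose and 43 did not pass the test. Of the 41 large subunit genes, 14 fell, 0 rose and 27 did not pass the test (limma on log2(TPM + 1), adjusted p under 0.05 over all 12996 genes; at an unadjusted p under 0.05, 19 were lower and 1 higher). Of the 26 small subunit genes, 9 fell, 1 rose and 16 did not pass. Thus 34.1% of the large and 34.6% of the small subunit genes fell, where the background over all tested genes was 22.0% lower and 17.9% higher. The median log2 change was -0.31 for the large subunit and -0.36 for the small subunit, beside -0.11 over all tested genes. The change was below 0 for 36 of 41 large and 23 of 26 small subunit genes, and for 55.4% of all tested genes. A change of at least 1 on the log2 scale together with the adjusted p was reached by 1 gene in each direction, MRPS6 lower and MRPS16 higher; such changes made up 7.77% of tested genes in the lower and 13.2% in the higher direction. In bulk RNA, fewer cells of a type and less RNA per cell cannot be told apart.

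The groups did not overlap for 43 genes. In 41 of them (61.2%) every somatic differentiated library lay below every undifferentiated library, where 30.6% of tested genes did so. The other 2, MRPS16 and MRPL34, lay wholly above, where 25.0% of tested genes did so. The remaining 24 genes overlapped. By subunit, 24 of 41 large and 17 of 26 small subunit genes were wholly lower.

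In TPM, the summed level of each subunit was lower in the somatic differentiated libraries. The large subunit summed to 4168, 4069 and 4179 TPM in the somatic differentiated libraries, against 4777, 6076 and 4942 TPM in the undifferentiated libraries. The small subunit summed to 2298, 2154 and 2149 TPM in somatic differentiated libraries, against 2602, 3053 and 2667 TPM in undifferentiated libraries. The groups did not overlap in either sum, and undifferentiated library 2 was the highest library in both. With libraries rescaled by the median of ratios both sums overlapped, at 4166, 4123 and 4584 for the large subunit in somatic differentiated libraries, against 4180, 6874 and 4496 in undifferentiated libraries. For the small subunit they were 2296, 2183 and 2357 in somatic differentiated libraries, against 2277, 3454 and 2426 in undifferentiated libraries. In TPM the ratio of the somatic differentiated mean to the undifferentiated mean was 0.786 for the large subunit and 0.793 for the small subunit. The mean TPM per gene of the large subunit over that of the small subunit was 1.19 ± 0.0416 in somatic differentiated and 1.20 ± 0.0537 in undifferentiated PGCs (SD, n = 3 each).

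Together the 67 genes took 0.647%, 0.622% and 0.633% of all TPM in somatic differentiated libraries, against 0.738%, 0.913% and 0.761% in undifferentiated libraries. The 69 genes of cytosolic ribosomal proteins, which build the ribosomes of the cytosol, served as a comparison. Relative to their sum, the mitochondrial set amounted to 4.53%, 4.13% and 4.53% in somatic differentiated libraries, against 5.65%, 5.19% and 5.93% in undifferentiated libraries. On this scale, which does not depend on library scaling, the groups did not overlap, and undifferentiated library 2 was the lowest of its group, not the highest. The cytosolic sum itself was 142770, 150730 and 139840 TPM in somatic differentiated libraries, against 130700, 175720 and 128310 TPM in undifferentiated libraries. Without undifferentiated library 2, the ratio of group means was 1.12 for the cytosolic and 0.846 for the mitochondrial sum. With median of ratios scaling these were 1.29 and 0.982. How much of the gap came from each sum was not tested.

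**Figure D1:**
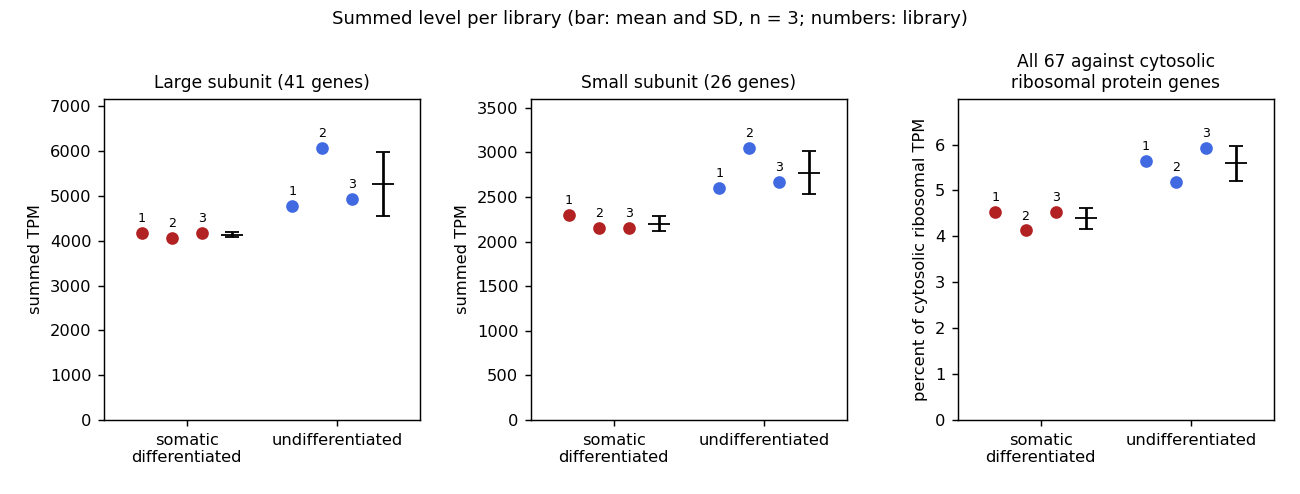
The first and second panels plot the summed TPM of the large and small subunit genes in each library, and the third the sum of all 67 genes as a percent of the summed TPM of cytosolic ribosomal protein genes; numbers name the library and bars give mean and SD (n = 3). Somatic differentiated libraries lie below all undifferentiated libraries in each panel, and undifferentiated library 2 lies highest in the first and second panels (6076 and 3053 TPM) and lowest of its group in the third (5.19%).

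Undifferentiated library 2 stood apart from its replicates in a way that follows gene length, and the mitochondrial ribosomal protein genes are short. Across the tested genes, the Spearman correlation between the genomic span of a gene and the deviation of a library from the other libraries of its group was -0.400 for undifferentiated library 2 (-0.00653, 0.189 and -0.165 for the somatic differentiated libraries, 0.338 and 0.315 for undifferentiated libraries 1 and 3; genes share the library, so this is a description). Undifferentiated library 2 is part of the reference for libraries 1 and 3, so their correlations are not separate from its own. The median span was 3531 bp for the 67 genes (3065 bp for large and 5388 bp for small subunit genes), beside 13716 bp for all tested genes. Of the 67, 37 spanned at most 4531 bp, as did the shortest 2601 tested genes, and 16 more spanned at most 9614 bp, as did the next 2598. Undifferentiated library 2 was the highest undifferentiated library for 57 of the 67 genes, 38 large and 19 small, while it was so for 22.7% of tested genes. Its median excess over libraries 1 and 3 was 0.32 (large) and 0.27 (small) on the log2 scale, against -0.26 for all tested genes. For the shortest 2601 tested genes, which include 37 of the members, the median was -0.01, so the members exceeded genes of short span too. How far span accounts for the excess of the members was not tested. Over the 67 genes the median SD on the log2 scale was 0.101 within somatic differentiated and 0.197 within undifferentiated PGCs, and 0.0609 between undifferentiated libraries 1 and 3 alone. Over all tested genes these were 0.206, 0.248 and 0.0951. The median of the mean levels was 83.05 TPM for the members and 22.89 TPM for all tested genes. How far the smaller spread and higher level of the members account for their shares of calls and of groups without overlap was not tested.

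**Figure D2:**
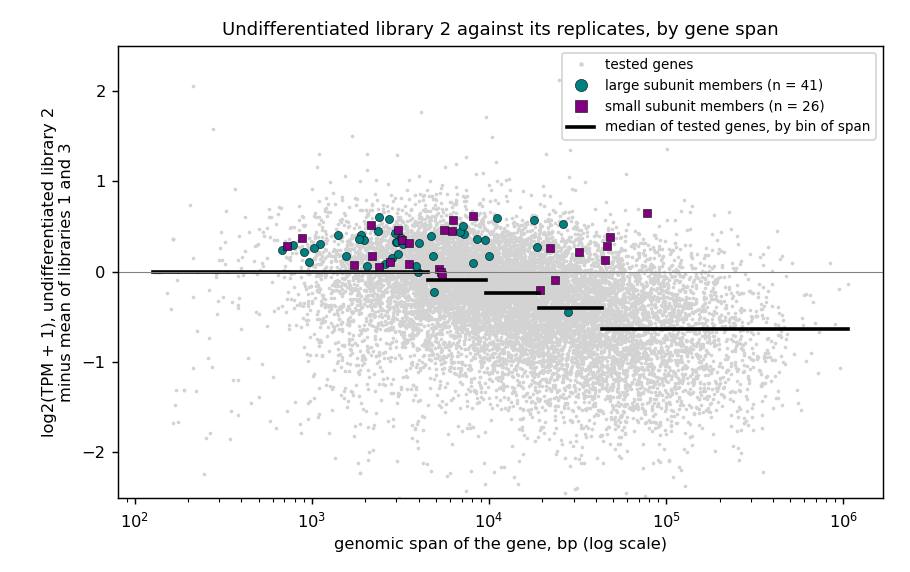
The axes give the genomic span of each tested gene (bp, log scale) and its log2(TPM + 1) in undifferentiated library 2 minus the mean of undifferentiated libraries 1 and 3; black lines are medians over 5 bins of span with about equal numbers of genes, and 36 genes lie outside the plotted range. The medians step down from -0.01 in the shortest to -0.64 in the longest bin, and most mitochondrial ribosomal protein genes lie above 0.

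Leaving out undifferentiated library 2 brought the medians of the members closer to that of all genes. The median change was then -0.24 for the large and -0.28 for the small subunit, beside -0.19 over all genes tested, so the gap to all genes shrank to -0.05 and -0.09, against -0.20 and -0.25 with all 6 libraries. The large subunit had 17 genes lower and 2 higher, and the small subunit 8 lower and 1 higher, where 31.8% of tested genes were lower and 17.5% higher. The share lower was thus above that of all tested genes for the large subunit, and slightly below it for the small subunit. The ratio of summed levels was 0.852 for the large and 0.835 for the small subunit.

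The calls also moved with the scaling. With libraries rescaled by the median of ratios, the median of all tested genes moved to -0.01, and those of the large and small subunits to -0.21 and -0.26. By limma, 3 genes were then lower and 0 higher in the large subunit (6 and 1 at an unadjusted p under 0.05), and 2 lower and 1 higher in the small subunit (background 18.6% lower, 21.9% higher). In each subunit the shares lower and higher were then both below the background. With each library's trend on gene span removed, 14 large subunit genes were lower and 2 higher, and 9 small subunit genes lower and 1 higher (background 22.6% lower, 19.0% higher). With undifferentiated library 2 left out and the other 5 libraries rescaled by the median of ratios, a combination added after seeing the data, the medians of the members lay near that of all genes. They were -0.03 and -0.07, beside 0.01 over all genes, with 4 lower and 4 higher large subunit genes and 2 lower and 2 higher small subunit genes (background 21.7% lower, 22.7% higher). Here too the shares of each subunit were below the background in both directions. The sums were rescaled only with all 6 libraries. On that scale the somatic differentiated means stood at 0.989 (large) and 0.969 (small) of the means of undifferentiated libraries 1 and 3. Leaving out somatic differentiated library 1, 2 or 3, or undifferentiated library 1 or 3, left 5, 7, 9, 11 and 6 large subunit genes lower and 0 higher, and 4, 7, 5, 8 and 4 small subunit genes lower and 1 higher. The shares of all tested genes called lower were smaller in these fits too, at 14.1%, 17.8%, 15.9%, 14.0% and 11.9%. Without somatic differentiated library 1 or 2, the share of large subunit genes called lower was below that of all tested genes. In the other fits of this kind it was above, and for the small subunit it was above in each.

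**Figure D3:**
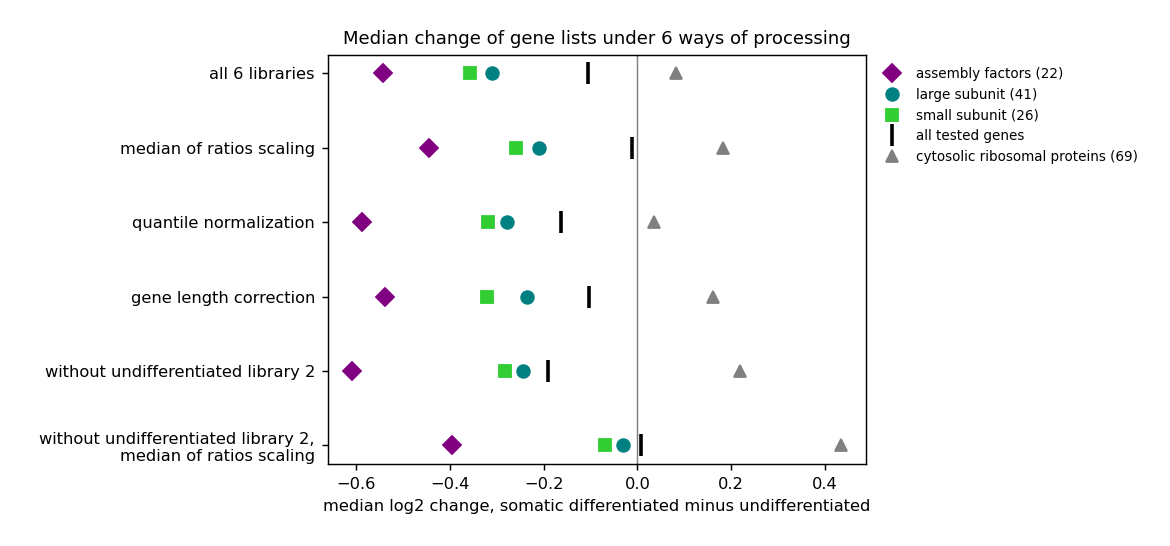
Each row is a way of processing the 6 libraries, and symbols give the median log2 change, somatic differentiated minus undifferentiated, of a gene list or of all tested genes. The large and small subunit lie below all tested genes in each row, by -0.20 and -0.25 in the top row and by far less in the bottom row (-0.03 and -0.07, against 0.01), while the assembly factors stay at -0.39 or lower and the cytosolic ribosomal proteins above 0.

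A set of 6 members passed the test in the fit of all 6 libraries and under each of the 18 alternatives, 5 lower (MRPS6, MRPS22, MRPL22, MRPL44, MRPL39) and 1 higher (MRPS16). They kept their direction throughout, and with median of ratios scaling they were the only members that passed.

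MRPS6, the counterpart of bacterial protein S6 on the platform of the small subunit, fell the most (ENSGALG00000027579, chromosome 1, 106990188 to 107038093, plus strand, positions as deposited). It had 23.3, 20.8 and 16.2 TPM in somatic differentiated libraries, against 48.3, 64.9 and 51.0 TPM in undifferentiated libraries. The groups lay far apart, and undifferentiated library 2 was the highest. The log2 change was -1.41 (SE 0.195, adjusted p = 0.0026), and -1.28 (adjusted p = 0.00441) without undifferentiated library 2. No other listed gene overlaps it, and with a span of 47906 bp it is among the long members.

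MRPS16 was the single member that rose. Its bacterial counterpart S16 binds early in assembly of the small subunit, and mutations of the human gene cause a defect of mitochondrial translation. It had 55.6, 45.8 and 48.4 TPM in somatic differentiated libraries, against 21.4, 27.5 and 22.2 TPM in undifferentiated libraries (ENSGALG00000050621, chromosome 21, 211285 to 214800, plus strand). Here undifferentiated library 2 was again the highest of its group, which lies on the side of the somatic differentiated libraries. The log2 change was 1.05 (SE 0.162, adjusted p = 0.00359), and 1.16 (adjusted p = 0.00302) without that library. A pseudogene on the opposite strand overlaps 2355 bp of MRPS16 and had 7.20, 7.25 and 7.24 TPM in somatic differentiated libraries, against 8.05, 3.76 and 8.09 TPM in undifferentiated libraries. Whether strand was used in counting is not given in the sources used here, so reads of the pair may be shared.

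MRPS6 and MRPS16 are both small subunit proteins, and their order in level turned over. The ratio of MRPS16 to MRPS6 was 2.38, 2.20 and 2.99 in somatic differentiated libraries, against 0.443, 0.423 and 0.434 in undifferentiated libraries. A ratio of genes within a library does not depend on library scaling, and the undifferentiated libraries, library 2 included, differed little in it. The pair was picked as the members with the largest changes each way, so the gap between groups follows from that choice.

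**Figure D4:**
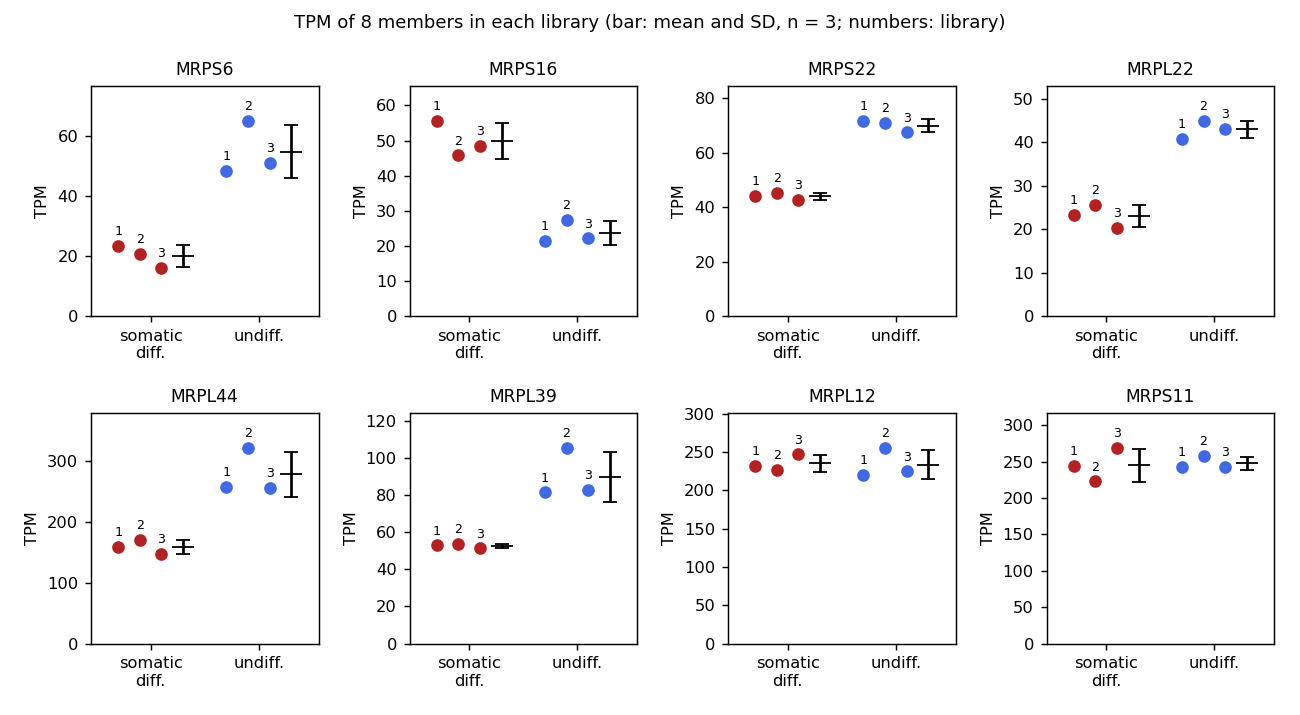
Panels plot the TPM of 8 members in each library, somatic differentiated left, with library numbers and the mean and SD (n = 3) beside the points. The groups do not overlap in the first 6 panels, with only MRPS16 higher in somatic differentiated PGCs (45.8 TPM or more, against 27.5 TPM or less), and they overlap for MRPL12 and MRPS11.

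MRPS22, a protein found only in mitochondrial ribosomes and mutated in human mitochondrial disease, had 44.1, 45.3 and 42.8 TPM in somatic differentiated libraries, against 71.7, 70.8 and 67.5 TPM in undifferentiated libraries (ENSGALG00000005367, chromosome 9, 6033561 to 6038799, plus strand). Undifferentiated library 2 lay between its replicates here. The log2 change was -0.66 (SE 0.115, adjusted p = 0.00557), and -0.65 without that library.

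MRPL22 lies at the wall of the exit tunnel. It had 23.3, 25.6 and 20.4 TPM in somatic differentiated libraries, against 40.9, 45.0 and 43.2 TPM in undifferentiated libraries (ENSGALG00000003919, chromosome 13, 12712730 to 12720801, minus strand). With a log2 change of -0.87 (SE 0.148, adjusted p = 0.00483) it fell the most of the large subunit genes, and undifferentiated library 2 moved this little (-0.84 without it).

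MRPL44, an RNase III-like protein near the tunnel exit that is mutated in human cardiomyopathy, had 159.6, 170.5 and 148 TPM in somatic differentiated libraries, against 258, 322 and 256 TPM in undifferentiated libraries (ENSGALG00000003067, chromosome 9, 9611815 to 9614811, plus strand). The change was -0.79 on the log2 scale (SE 0.13, adjusted p = 0.00438), and -0.69 without undifferentiated library 2. MRPL39, a large subunit protein with no bacterial counterpart, had 52.9, 53.7 and 51.2 TPM in somatic differentiated libraries, against 81.5, 105 and 82.7 TPM in undifferentiated libraries (ENSGALG00000015742, chromosome 1, 103804015 to 103813504, minus strand). Its change was -0.75 (SE 0.141, adjusted p = 0.00672), and -0.63 without undifferentiated library 2. In both genes the somatic differentiated libraries were close together and undifferentiated library 2 was clearly the highest.

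The stalk of the large subunit, which recruits translation factors, showed no called change in its measured core. MRPL12, the stalk protein, had 232, 227 and 247 TPM in somatic differentiated libraries, against 220.4, 255 and 225 TPM in undifferentiated libraries, and the groups overlapped (log2 change 0.01, SE 0.107, adjusted p = 0.935). MRPL10, which anchors the stalk, averaged 45.9 ± 1.89 TPM in somatic differentiated and 59.1 ± 9.44 TPM in undifferentiated PGCs (SD, n = 3 each; log2 change -0.35, adjusted p = 0.11). The ratio of MRPL12 to MRPL10 was 5.13 ± 0.43 in somatic differentiated and 3.98 ± 0.345 in undifferentiated PGCs (SD, n = 3 each), with no overlap. MRPL12 also served as a scale-free yardstick for the genes above: MRPL44 stood at 0.680 ± 0.0763 of its level in somatic differentiated and 1.19 ± 0.0641 in undifferentiated PGCs. MRPL22 stood at 0.0987 ± 0.0151 and 0.185 ± 0.00803 of it, somatic differentiated first. MRPL22 and MRPL44 had the largest falls of the subunit and MRPL12 changed little, so these ratios restate those changes and are not separate support. Of MRPL11 no value was analysed here.

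Of the other tunnel proteins, MRPL45 passed the test and MRPL23 and MRPL24 did not. MRPL45, which tethers the ribosome to the inner membrane, averaged 61.3 ± 2.54 TPM in somatic differentiated and 84.8 ± 5.27 TPM in undifferentiated PGCs (SD, n = 3 each) and fell (log2 change -0.46, adjusted p = 0.0198). MRPL23 had 204, 186 and 182 TPM in somatic differentiated libraries, against 233, 359 and 241 TPM in undifferentiated libraries. It missed the threshold with all libraries (log2 change -0.51, adjusted p = 0.0581) and passed it with a smaller change without undifferentiated library 2, far the highest (-0.31, adjusted p = 0.0343). MRPL24 overlapped between groups, at 102 ± 14.1 and 127 ± 18.7 TPM, somatic differentiated first (SD, n = 3 each; log2 change -0.30, adjusted p = 0.171). MRPL45 lost its call without somatic differentiated library 1 (adjusted p = 0.072) or undifferentiated library 3 (0.0914), and over the 18 alternatives its adjusted p ran between 0.00379 and 0.129.

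Among the large subunit genes, MRPL42, MRPL54 and MRPL58 had the highest means over the 6 libraries, and all 3 fell. MRPL42 had 211, 223 and 207 TPM in somatic differentiated libraries, against 307, 431 and 341 TPM in undifferentiated libraries (log2 change -0.73, adjusted p = 0.00767). MRPL54 averaged 213 ± 5.96 TPM in somatic differentiated and 311 ± 53.6 TPM in undifferentiated PGCs (SD, n = 3 each; log2 change -0.53, adjusted p = 0.0221). MRPL58, also known as ICT1, is a peptidyl-tRNA hydrolase that frees stalled ribosomes and became a part of the large subunit. It averaged 207 ± 5.60 TPM in somatic differentiated and 304 ± 58.1 TPM in undifferentiated PGCs (SD, n = 3 each; log2 change -0.54, adjusted p = 0.0251). MRPL53 had 58.1, 69.7 and 46.1 TPM in somatic differentiated libraries, against 80.5, 114 and 92.9 TPM in undifferentiated libraries (log2 change -0.72, adjusted p = 0.0264).

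Each of these 4 calls was lost under some alternative. With median of ratios scaling all 4 were lost (adjusted p = 0.0569 for MRPL42, 0.0761 for MRPL53 and 0.164 for both MRPL54 and MRPL58). MRPL53 also lost its call without somatic differentiated library 1 or 3 or undifferentiated library 3 (adjusted p = 0.07, 0.0693 and 0.0748). MRPL54 lost it without any single somatic differentiated library or undifferentiated library 3 (0.0511 to 0.0653), and MRPL58 without any single somatic differentiated library (0.0647 to 0.0661).

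MRPL3, a core protein with a bacterial counterpart, spans 27824 bp, the most of any large subunit member, and had 136, 153 and 154 TPM in somatic differentiated libraries, against 211, 158 and 219.9 TPM in undifferentiated libraries. In this gene undifferentiated library 2 was the lowest of its group and lay close to the somatic differentiated libraries. The log2 change was -0.39 (adjusted p = 0.078) with all libraries and -0.54 (adjusted p = 0.0082) without that library. By the mean over the 6 libraries, the lowest levels in the large subunit were those of MRPL41, MRPL47 and MRPL37, at 27.4 ± 2.95, 29.0 ± 1.59 and 26.3 ± 1.75 TPM in somatic differentiated PGCs, against 29.5 ± 2.67, 35.2 ± 0.961 and 34.5 ± 3.11 TPM in undifferentiated PGCs (SD, n = 3 each). None of the 3 passed the test (adjusted p = 0.615, 0.143 and 0.0779). In somatic differentiated PGCs alone MRPL22 was lower still, at 23.1 TPM.

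The remaining large subunit genes that fell were MRPL21, MRPL18, MRPL48, MRPL35, MRPL51 and MRPL57, with log2 changes between -0.68 and -0.40. MRPL48 lost its call without undifferentiated library 3 (adjusted p = 0.0606) and MRPL18 without somatic differentiated library 1 or 2 (0.0583 and 0.0644). MRPL21 lost it without any single somatic differentiated library or undifferentiated library 3 (0.064 to 0.0762), and MRPL35 without any single library but undifferentiated library 2 (0.0582 to 0.111). MRPL51 and MRPL57 lost it without somatic differentiated library 1 or 2 or undifferentiated library 1 or 3 (0.0628 to 0.0961 and 0.116 to 0.141). At the other end lay 3 genes picked out here after their values were seen. MRPL34 had 61.0, 52.7 and 57.3 TPM in somatic differentiated libraries, against 35.5, 49.7 and 41.4 TPM in undifferentiated libraries, with no overlap (log2 change 0.44, adjusted p = 0.069). Without undifferentiated library 2 it passed (0.56, adjusted p = 0.016), as did MRPL20 (0.48, adjusted p = 0.0374), while MRPL17 did not (0.45, adjusted p = 0.0656). With all libraries MRPL20 and MRPL17 changed by 0.29 and 0.36 (adjusted p = 0.292 and 0.117). MRPL20 shares 1205 bp with CCNL2 on the same strand, so reads of the pair may be shared.

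In the small subunit, MRPS12 and MRPS5 lie near the decoding site and MRPS2 between the head and the body. MRPS12, the counterpart of the bacterial protein in which streptomycin resistance arises, had 70.1, 80.2 and 80.3 TPM in somatic differentiated libraries, against 115, 132 and 100.5 TPM in undifferentiated libraries (log2 change -0.58, SE 0.141, adjusted p = 0.0172). MRPS5, whose bacterial counterpart affects the accuracy of decoding, had 107, 91.2 and 106 TPM in somatic differentiated libraries, against 150.4, 163 and 149 TPM in undifferentiated libraries (log2 change -0.60, SE 0.116, adjusted p = 0.00742). Both fell, with no overlap between groups. MRPS12 lost its call without somatic differentiated library 1 or undifferentiated library 1 (adjusted p = 0.067 and 0.0536). With median of ratios scaling both MRPS12 (0.102) and MRPS5 (0.0549) lost their calls. MRPS2, whose bacterial counterpart binds late in assembly, had 50.7, 47.5 and 50.8 TPM in somatic differentiated libraries, against 49.7, 52.8 and 50.3 TPM in undifferentiated libraries, and the groups overlapped (log2 change -0.04, adjusted p = 0.829).

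MRPS26, MRPS18C and MRPS27 also fell. MRPS26, a mitochondrial protein with no bacterial counterpart, had 239, 216 and 241 TPM in somatic differentiated libraries, against 312, 312 and 311 TPM in undifferentiated libraries. The undifferentiated libraries were nearly equal, library 2 included, and the log2 change was -0.43 (SE 0.097, adjusted p = 0.0135). MRPS18C, a counterpart of bacterial S18, had 157, 149.5 and 132 TPM in somatic differentiated libraries, against 177, 272 and 202 TPM in undifferentiated libraries (log2 change -0.55, adjusted p = 0.0433). MRPS27, a pentatricopeptide repeat protein, averaged 63.4 ± 2.88 TPM in somatic differentiated and 89.3 ± 10.7 TPM in undifferentiated PGCs (SD, n = 3 each; log2 change -0.48, adjusted p = 0.0255). MRPS10, the last of the 9 small subunit genes that fell, lay only just inside the threshold (log2 change -0.61) and lost its call with any of the 6 libraries left out (adjusted p = 0.0501 to 0.137).

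The calls of MRPS26, MRPS27 and MRPS18C were lost without single libraries. MRPS26 lost its call without undifferentiated library 1 or 3 (adjusted p = 0.0505 and 0.0576). MRPS27 lost it without somatic differentiated library 1 or 3 or undifferentiated library 3 (0.0817, 0.0648 and 0.0726). MRPS18C lost it without any single somatic differentiated library (0.0793, 0.0859 and 0.121) or undifferentiated library 3 (0.0913). A long noncoding RNA on the opposite strand covers 44751 bp of MRPS27. It had 6.05, 5.23 and 4.87 TPM in somatic differentiated libraries, against 17.1, 20.6 and 14.4 TPM in undifferentiated libraries. Since the use of strand in counting is not given, reads of the pair may be shared.

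MRPS7, MRPS34, MRPS24 and MRPS21 did not pass the test. MRPS7, which binds the head of the small subunit's RNA, averaged 59.8 ± 3.97 TPM in somatic differentiated and 70.2 ± 1.26 TPM in undifferentiated PGCs (SD, n = 3 each; log2 change -0.23, adjusted p = 0.158). MRPS34, mutated in human mitochondrial disease, averaged 50.8 ± 2.15 and 58.1 ± 4.41 TPM, somatic differentiated first (log2 change -0.19, adjusted p = 0.26). MRPS24 and MRPS21 were among the lowest of the subunit, MRPS24 at 29.0 ± 3.18 and MRPS21 at 18.5 ± 1.25 TPM in somatic differentiated PGCs, against 42.2 ± 9.07 and 22.2 ± 3.68 TPM in undifferentiated PGCs (adjusted p = 0.081 and 0.319). Without undifferentiated library 1, MRPS24 passed (log2 change -0.69, adjusted p = 0.036).

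MRPS11, the counterpart of bacterial S11 at the messenger exit, had the highest mean of the small subunit in somatic differentiated PGCs. It had 244, 223 and 268 TPM in somatic differentiated libraries, against 243, 258 and 242 TPM in undifferentiated libraries, and the groups overlapped (log2 change -0.02, SE 0.11, adjusted p = 0.901). Its change lay above 0 with median of ratios scaling (0.08), with quantile normalization (0.10), with the span trend removed (0.07), and without somatic differentiated library 2 (0.05) or undifferentiated library 2 (0.01). MRPS11 is transcribed away from MRPL46, a large subunit gene whose start lies 20 bp from its own on chromosome 10. MRPL46 had 51.4, 47.8 and 54.2 TPM in somatic differentiated libraries, against 52.9, 54.8 and 50.7 TPM in undifferentiated libraries (log2 change -0.05, adjusted p = 0.781). The ratio of MRPS11 to MRPL46 was 4.78 ± 0.152 in somatic differentiated and 4.69 ± 0.0942 in undifferentiated PGCs (SD, n = 3 each).

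MRPS30 and MRPS18A, which mammalian structures place in the large subunit, differed in their calls. MRPS30 had 66.8, 70.2 and 58.6 TPM in somatic differentiated libraries, against 87.9, 125 and 93.7 TPM in undifferentiated libraries (log2 change -0.63, SE 0.167, adjusted p = 0.0235). It lost its call without somatic differentiated library 1 or 3 or undifferentiated library 3 (adjusted p = 0.0634, 0.0691 and 0.0564). MRPS18A averaged 50.3 ± 3.25 TPM in somatic differentiated and 60.1 ± 5.66 TPM in undifferentiated PGCs (SD, n = 3 each; log2 change -0.25, adjusted p = 0.173). Counting both with the large subunit and leaving out MRPS36 gave 15 of 43 large subunit genes lower (median -0.31), and 8 of 23 small subunit genes lower and 1 higher (median -0.39). This placement was added after seeing the data.

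Of 4 measured mitoribosomal proteins under other symbols, 3 fell (beside 22.0% of all tested genes), with a median log2 change of -0.49. DAP3, a GTP-binding protein of the small subunit first known from apoptosis, had 76.3, 78.8 and 85.3 TPM in somatic differentiated libraries, against 110.5, 115 and 119 TPM in undifferentiated libraries (log2 change -0.52, adjusted p = 0.0108). CHCHD1, another small subunit protein, averaged 48.5 ± 4.16 TPM in somatic differentiated and 78.2 ± 10.9 TPM in undifferentiated PGCs (SD, n = 3 each; log2 change -0.67, adjusted p = 0.0119). DAP3 lost its call without somatic differentiated library 1 or undifferentiated library 3 (adjusted p = 0.0503 and 0.0549). AURKAIP1, the remaining gene that fell (log2 change -0.46, adjusted p = 0.047), passed under 6 of the 18 alternatives. It lost its call without undifferentiated library 2 (0.085), while PTCD3 did not pass with all libraries (0.139) but passed as lower without that library (0.0377). With median of ratios scaling 0 of the 4 passed (limma; 2 were lower at an unadjusted p under 0.05), and CHCHD1 had an adjusted p of 0.0587.

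Many of the factors that build the mitochondrial ribosome also fell. Of 22 measured assembly and rRNA factors, 13 fell and 0 rose by limma (14 and 0 at an unadjusted p under 0.05), or 59.1% lower where 22.0% of all tested genes were, with a median log2 change of -0.54. MRM1, which methylates the large subunit's RNA, had 12.2, 12.2 and 11.9 TPM in somatic differentiated libraries, against 30.6, 38.5 and 33.4 TPM in undifferentiated libraries (log2 change -1.42, adjusted p = 0.00139). DDX28, an RNA helicase of large subunit assembly, had 16.9, 17.5 and 17.7 TPM in somatic differentiated libraries, against 36.4, 33.3 and 39.5 TPM in undifferentiated libraries (log2 change -1.02, adjusted p = 0.00277). For both, every somatic differentiated library lay far below every undifferentiated library and the fall passed under each of the 18 alternatives. The list had 14 lower genes (63.6%, beside 31.8% of all tested genes) without undifferentiated library 2 and 11 (50.0%, beside 18.6%) with median of ratios scaling. It had 9, 10 and 11 lower (40.9%, 45.5% and 50.0%, beside 14.1%, 17.8% and 15.9%) without somatic differentiated library 1, 2 or 3. Without undifferentiated library 1 or 3 it had 7 (31.8%, beside 14.0% and 11.9%). The difference between this list and the members was not tested.

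Genes for mitochondrial transcription and RNA stability, which supply the messages and ribosomal RNAs, also fell in 8 of 10 cases (80.0%, beside 22.0% of all tested genes), with a median of -0.57. LRPPRC, a protein that stabilises mitochondrial messages, had 140.3, 157 and 132 TPM in somatic differentiated libraries, against 249, 249.8 and 280.3 TPM in undifferentiated libraries (log2 change -0.86, adjusted p = 0.00239). POLRMT, the mitochondrial RNA polymerase, had 24.7, 31.3 and 26.7 TPM in somatic differentiated libraries, against 58.3, 38.5 and 58.5 TPM in undifferentiated libraries (log2 change -0.87, adjusted p = 0.0156). Undifferentiated library 2 was far the lowest of its group for POLRMT. The list had 8 lower without undifferentiated library 2 (beside 31.8% of all tested genes) and 4 with median of ratios scaling (beside 18.6%). It had 3, 6 and 6 without somatic differentiated library 1, 2 or 3 (beside 14.1%, 17.8% and 15.9%). Without undifferentiated library 1 or 3 it had 4 and 2 (beside 14.0% and 11.9%), and POLRMT missed the threshold in both of these fits (adjusted p = 0.0558 and 0.0646) and without somatic differentiated library 1 (0.0567).

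Of 15 mitochondrial aminoacyl-tRNA synthetases and amidotransferase subunits, which charge the tRNAs, 5 fell and 1 rose (33.3% and 6.67%, beside 22.0% and 17.9% of all tested genes; median -0.38). PARS2 averaged 19.8 ± 1.48 TPM in somatic differentiated and 42.4 ± 5.46 TPM in undifferentiated PGCs (SD, n = 3 each; log2 change -1.06, adjusted p = 0.00347), and YARS2 39.0 ± 3.19 and 76.2 ± 3.18 TPM (log2 change -0.95, adjusted p = 0.0023). GATB, a subunit of the amidotransferase that makes mitochondrial glutaminyl-tRNA, was the gene that rose. It had 20.4, 20.8 and 16.2 TPM in somatic differentiated libraries, against 9.59, 6.03 and 9.64 TPM in undifferentiated libraries (log2 change 1.11, adjusted p = 0.01). The list had 3 lower genes (20.0%) when somatic differentiated library 1 or 2 or undifferentiated library 1 or 3 was left out (beside 14.1%, 17.8%, 14.0% and 11.9% of all tested genes), and 3 with median of ratios scaling (beside 18.6%). Without undifferentiated library 2, CARS2 lost its call (adjusted p = 0.0554) and WARS2 gained one (0.0171). The share lower was then the same as with all libraries, and near the 31.8% of all tested genes.

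Of 8 mitochondrial translation factors, 2 fell and 6 did not pass (median -0.08); the 25.0% lower lies near the 22.0% of all tested genes. The genes that fell were GFM1, an elongation factor that moves the ribosome along the message, at 84.7 ± 15.0 TPM in somatic differentiated and 128 ± 14.7 TPM in undifferentiated PGCs (SD, n = 3 each; log2 change -0.60, adjusted p = 0.029), and GUF1, at 13.2 ± 2.12 and 21.9 ± 3.75 TPM (log2 change -0.69, adjusted p = 0.0336). Neither passed without somatic differentiated library 3 (adjusted p = 0.0588 and 0.0868), undifferentiated library 1 (0.0947 and 0.0869) or undifferentiated library 3 (0.076 and 0.0573), and GUF1 also not without somatic differentiated library 1 (0.086). Of 7 nuclear regulators of mitochondrial genes, 1 fell and 1 rose (14.3% each, beside 22.0% lower and 17.9% higher over all tested genes). GABPA, a subunit of a factor that binds promoters of nuclear genes for mitochondrial proteins, had 88.7, 110.4 and 81.2 TPM in somatic differentiated libraries, against 156, 109 and 160.1 TPM in undifferentiated libraries, and the groups overlapped (log2 change -0.59, adjusted p = 0.0491). It missed the threshold without somatic differentiated library 1 or 3 (0.128 and 0.137) or undifferentiated library 1 or 3 (0.139 and 0.155), and passed without undifferentiated library 2 (0.0103). In that last fit NRF1, PPRC1 and PPARGC1A were called lower too (log2 change -0.57, -1.07 and -1.39, adjusted p = 0.0196, 0.0087 and 0.0207). GABPB1 (0.0848) and ESRRG (0.943) did not pass there, and 31.8% of all tested genes were lower. With all libraries NRF1, PPRC1 and PPARGC1A had missed the threshold (0.501, 0.0934 and 0.0745). MYC, a general regulator of growth genes, had 121, 56.1 and 78.8 TPM in somatic differentiated libraries, against 23.0, 9.77 and 15.0 TPM in undifferentiated libraries (log2 change 2.36, adjusted p = 0.00377).

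How many cytosolic ribosomal protein genes were called depended on undifferentiated library 2. Of 69, with all libraries, 1 fell (RPS20, log2 change -0.45, adjusted p = 0.0461) and 1 rose (RPS27L, log2 change 1.37, adjusted p = 0.0035), and the median was 0.08; each is 1.45%, beside 22.0% of all tested genes lower and 17.9% higher. RPS27L was at low levels, with 4.88, 3.84 and 4.89 TPM in somatic differentiated libraries, against 1.3, 1.13 and 0.975 TPM in undifferentiated libraries. RPS20 missed the threshold without any single somatic differentiated library (0.136, 0.0829 and 0.086) or undifferentiated library 3 (0.0953). Without undifferentiated library 2, 1 of the 69 was lower and 18 were higher (26.1%, beside 17.5% of all tested genes), with a median of 0.22, beside medians of -0.24 and -0.28 for the mitochondrial large and small subunit. With the other 5 libraries rescaled by the median of ratios as well, 39 of the 69 were higher (56.5%, beside 22.7%), with a median of 0.44. The direction of the cytosolic list's median was above 0 in every setting, and the difference between the lists was not tested.

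By position, the 67 genes were spread over 23 chromosomes, with 10 on chromosome 1, 5 on Z and 0 on W. A total of 21 were overlapped by another listed gene, 8 of them on the same strand, and their TPM may include reads of the neighbour.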

How the data were processed

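The authors deposited a table of TPM values per gene for 6 polyA libraries, and every column matched a label (0 unmapped columns). Per the submitters' processing notes, the tools were FastQC 0.11.9, Trimmomatic 0.39, Trim Galore 0.6.6, cutadapt 3.1, STAR 2.7.3a and RSEM 1.3.1, and the build GRCg6a, with no role or order given. Each column sums to 1000000, so abundant genes move all others.

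Genes averaging at least 1 TPM entered a limma fit (version 3.58.1, R 4.3.3) of log2(TPM + 1), with trended moderated variances and no covariates. Tests were two-sided, with Benjamini-Hochberg adjustment over all 12996 genes. A change on this scale understates that of low genes. The code was tested on simulated data. Span is the genomic length of the gene in the table. Plots used Python 3.11.15 and matplotlib 3.10.9.

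Members and lists were chosen with earlier results of these data known. List symbols were matched exactly; those not matched were not analysed here. The text names members changed by at least 1, the 5 largest called changes each way and the 3 highest and 3 lowest means per subunit, members of known role, and up to 2 called genes each way per other list. Other list genes named for calls that moved without undifferentiated library 2 fall outside this rule and outside the counts over the 18 alternatives. The 18 alternatives changed pseudocount, filter, scaling, variance model, library weights, span correction and replicate block, or left out a library.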

Additional observations from a re-analysis of the deposited data

How the results depend on the processing

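Over the 18 alternatives, single named genes kept their direction and their side of the threshold in 723 of 845 comparisons with the values reported. They lost the call in 93, gained it in 10 and turned direction in 19, all 19 for members that had not passed. MRPL12 turned to -0.023, -0.027 and -0.013 without somatic differentiated library 3, undifferentiated library 1 and undifferentiated library 3, and MRPL41 to 0.023 with library weights. MRPS11 turned to 0.081 with median of ratios scaling, 0.10 with quantile normalization, 0.066 with gene length correction (with or without the replicate block), and 0.047 and 0.0099 without somatic differentiated and undifferentiated library 2. Over the fits without a library MRPL12 lay between -0.027 and 0.078 and MRPS11 between -0.087 and 0.047. MRPS2 turned to 0.063 with median of ratios scaling and 0.041 with gene length correction (with or without the block). Leaving out undifferentiated library 2 with median of ratios scaling gave 0.23 for MRPS11, 0.20 for MRPS2, 0.17 for MRPL41, 0.013 for MRPL24, 0.083 for MRPS21 and 0.081 for MRPS34. The cause of these changes was not tested.

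Calls over all tested genes numbered 5185, against 7815 with library weights (whose fit stopped short of convergence) and 3222 to 6433 with a library left out. Those also changed by at least 1 numbered 2731, against 1719 with a pseudocount of 5 and 2218 to 2890 with a library left out. The large subunit had 14 calls, against 3 with median of ratios scaling, 22 with library weights, 8 with the 5 libraries so rescaled and 5 to 19 with a library left out. The small subunit had 10, against 3, 16 and 4 under the same settings and 5 to 9 with a library left out. The medians moved to -0.030 and -0.068 with the 5 rescaled libraries, and lay between -0.36 and -0.24 (large) and between -0.43 and -0.28 (small) with a library left out. With a library left out the ratio of summed TPM lay between 0.751 and 0.852 (large) and between 0.769 and 0.835 (small).

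No label says what a replicate number marks, so the libraries were not paired in the main fit. Deviations from the group means correlated at 0.192, 0.0131 and 0.14 between same-numbered libraries, and at -0.256 to 0.112 between the others. Somatic differentiated libraries 1 and 3 correlated best with the undifferentiated library of the same number. Somatic differentiated library 2 correlated best with undifferentiated library 3 (0.112). Whether the numbers pair the libraries was not tested. The replicate block left 8 calls in the large subunit (9 with gene length correction) and 9 in the small subunit (9). TPM gives no depth, so which low values are limited by it is unknown.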

Other observations

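Several mitochondrial ribosomal protein genes share their start region with another gene. A protein-coding gene on the other strand, transcribed away and starting within 1000 bp, was listed for 22 of the 67 (32.8%), and for 1904 of 12314 tested protein-coding genes (15.5%). This gave 21 distinct pairs, since MRPS11 and MRPL46 are each other's partner. Of the 20 partners that are not themselves members, 7 fell, 0 rose and 13 did not pass the test by limma, where 22.0% of all tested genes were lower and 17.9% higher. At an unadjusted p under 0.05, 8 were lower and 0 higher. Without undifferentiated library 2 the 7 kept their calls. IMMT, HIRA, APBA3 and GLYR1 then passed as lower too (adjusted p = 0.0113, 0.0258, 0.0202 and 0.0165), where 31.8% of all tested genes were lower.

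With all 6 libraries, both genes fell in 4 pairs. GEMIN5, a protein of small nuclear ribonucleoprotein assembly, starts in the 5' part of MRPL22 and had 72.6, 95.2 and 71.0 TPM in somatic differentiated libraries, against 207, 132 and 206 TPM in undifferentiated libraries (log2 change -1.16, adjusted p = 0.00641). The pair shares 110 bp, and reads there may be shared. NCAPD2, a condensin subunit next to MRPL51, averaged 40.3 ± 2.99 TPM in somatic differentiated and 73.7 ± 14.5 TPM in undifferentiated PGCs (SD, n = 3 each; log2 change -0.84, adjusted p = 0.0106). SKA3, a spindle protein next to MRPL57, averaged 49.1 ± 9.84 and 110.6 ± 5.71 TPM, somatic differentiated first (log2 change -1.17, adjusted p = 0.00266). PTCD2, a mitochondrial RNA-binding protein whose start lies 21 bp from that of MRPS27, averaged 22.1 ± 2.25 and 34.5 ± 4.39 TPM (log2 change -0.62, adjusted p = 0.0237), and lost its call without somatic differentiated library 1 or 3 or undifferentiated library 1 or 3 (0.055 to 0.0648). MRPL51, MRPL57 and MRPS27 likewise lost theirs without single libraries, with adjusted p of at most 0.141 for MRPL57.

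Partners did not always move together. MRPL43 had 260.4, 233 and 254 TPM in somatic differentiated libraries, against 231, 279 and 239.5 TPM in undifferentiated libraries, and overlapped between groups (adjusted p = 0.991). Its partner 114 bp away, listed as C10orf2, an older symbol of the mitochondrial helicase TWNK, had 35.7, 41.0 and 41.0 TPM in somatic differentiated libraries, against 66.9, 66.6 and 74.3 TPM in undifferentiated libraries (log2 change -0.80, adjusted p = 0.00417). These pairs were picked out after their values were seen.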
